A study of Mus musculus with 4 samples.

Results

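The high mobility group (HMG) architectural proteins are small, abundant chromatin proteins that bind DNA or nucleosomes by structure rather than by a long recognition sequence. The gene rows examined were those of the symbols Hmga1, Hmga2, Hmgb1, Hmgb2, Hmgb3, Hmgn1, Hmgn2, Hmgn3 and Hmgn5, which are 9 of the 47937 genes in the deposited count table, with 2 HMGA, 3 HMGB and 4 HMGN genes. The libraries were made from total RNA of a mouse embryonic fibroblast (MEF) line. The control group was wild-type, untreated cells and the treated group was cells given genistein, an isoflavone from plants that inhibits tyrosine kinases and type II topoisomerases, at 50 µM for 24 h, with 2 libraries in each group. The genotype field of the treated libraries reads Genistein treated, the control libraries are labelled untreated with no vehicle named, and no label says whether the replicates of a group were separate cultures, so each p-value measures only the spread between these libraries.

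HMGA proteins carry AT hooks, short arms that lie in the minor groove of A/T-rich DNA, and they are abundant in embryonic and proliferating cells and scarce in most adult tissue. HMGB proteins carry HMG boxes, folded domains that bend DNA sharply, followed by an acidic tail, and HMGB1 released from cells acts as a danger signal on neighbouring cells. HMGN proteins bind the nucleosome core particle itself and compete with linker histone H1. The comparison asks how genistein, studied here for its effect on transcription from heterochromatin, changed the messenger RNA of these proteins.

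The libraries held 28591958 to 31464284 counted reads. Pearson's r of log2 CPM (counts scaled to library size) across genes and repeats was 0.996 between the untreated libraries, 0.995 between the genistein libraries and 0.96 to 0.964 between the groups. The fibroblast genes fixed as markers summed to 448248 to 459687 normalised read counts in the untreated libraries and to 421338 to 430753 in the genistein libraries, while Thy1 was listed at 0 in every library. The response to genistein was broad: of the 16240 genes that passed the filter on low counts, 38.2% were lower and 33.5% were higher at an adjusted p under 0.05, and the median log2 fold change of all of them was -0.03. All 9 HMG genes passed that filter. In RNA from a whole culture, fewer cells of a type and less RNA per cell cannot be told apart.

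The coding sequences show what sets the subfamilies apart. The following stretches of the Hmga1 and Hmga2 coding sequence, read from the annotated transcripts of the GRCm38 mouse genome and written 5′ to 3′, hold the AT hooks, and the capitals mark the 12 bases that encode the 4-residue core of each hook.
Hmga1 hook 1: cgaggcCGGGGCAGGCCAcgcaag
Hmga1 hook 2: agacctCGGGGCCGACCAaaggga
Hmga1 hook 3: aaaccaAGGGGCAGACCCaagaaa
Hmga2 hook 1: cgaggaCGCGGCCGACCCaggaag
Hmga2 hook 2: agacccAGAGGAAGACCCaaaggc
Hmga2 hook 3: cggccaAGAGGCAGACCTaggaaa
Each gene had 3 hooks in a protein of 107 residues for Hmga1 and 108 residues for Hmga2. The HMGB genes differ instead in the acidic tail, which the translated coding sequences gave as 30 residues in Hmgb1, 23 in Hmgb2 and 20 in Hmgb3. In the HMGN genes the same 8-residue nucleosome-binding core is encoded by the 24 bases below, all of them in capitals.
Hmgn1 core: CGCCGCTCCGCGAGGCTGTCGGCC
Hmgn2 core: AGAAGATCTGCGAGGTTGTCTGCT
Hmgn3 core: AGACGGTCGGCCAGGTTGTCCGCG
Hmgn5 core: AGAAGATCAGCCCGACTGTCTGCT
Hmgn2 and Hmgn5 shared 19 of the 24 bases, the highest number of any pair, and Hmgn1 and Hmgn5 shared 14, the lowest.

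Promoter sequence is shown as a description. Of the 9 HMG genes, 7 were lower at an adjusted p under 0.05, among them all 3 HMGB genes. Over all genes tested, 38.2% were lower. RefSeq windows of build GRCm38.p6, taken as the 250 bases upstream of the start site, matched 8 of the 9 genes, with no entry for Hmgn3. Hmga1 and Hmgb1 had 2 windows listed each, and the one nearest the RefSeq gene edge was used. For Hmgb1 its start site, at 149053057, lies inside the annotated gene span of chr5:149046702-149184489. Each window is written 5′ to 3′ on the strand of its gene, and the capitals mark the CCAAT box, searched as CCAAT on both strands.
Hmgb1 promoter (chr5:149053058-149053307, minus strand): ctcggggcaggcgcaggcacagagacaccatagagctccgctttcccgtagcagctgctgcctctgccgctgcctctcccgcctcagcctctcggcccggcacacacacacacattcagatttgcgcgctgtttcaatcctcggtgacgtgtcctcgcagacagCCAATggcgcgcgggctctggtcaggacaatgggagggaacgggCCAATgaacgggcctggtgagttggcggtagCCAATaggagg
Hmgb2 promoter (chr8:57511593-57511842, plus strand): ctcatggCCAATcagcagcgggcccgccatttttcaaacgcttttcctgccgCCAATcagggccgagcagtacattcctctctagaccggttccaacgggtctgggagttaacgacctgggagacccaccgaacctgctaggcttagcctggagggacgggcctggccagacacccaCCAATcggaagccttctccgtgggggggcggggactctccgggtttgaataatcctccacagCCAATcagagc
Hmgb3 promoter (chrX:71555667-71555916, plus strand): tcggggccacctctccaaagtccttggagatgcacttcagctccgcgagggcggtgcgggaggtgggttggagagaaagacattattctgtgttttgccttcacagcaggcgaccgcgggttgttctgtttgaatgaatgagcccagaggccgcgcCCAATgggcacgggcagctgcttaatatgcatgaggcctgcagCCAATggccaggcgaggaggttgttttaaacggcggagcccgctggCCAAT
Hmga1 promoter (chr17:27556324-27556573, plus strand): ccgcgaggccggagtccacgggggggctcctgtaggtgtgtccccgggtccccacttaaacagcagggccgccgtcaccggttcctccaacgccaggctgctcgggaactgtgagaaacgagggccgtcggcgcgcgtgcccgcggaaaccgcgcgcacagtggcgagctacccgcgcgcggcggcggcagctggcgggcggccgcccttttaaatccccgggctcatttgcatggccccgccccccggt
Hmgn2 promoter (chr4:133967992-133968241, minus strand): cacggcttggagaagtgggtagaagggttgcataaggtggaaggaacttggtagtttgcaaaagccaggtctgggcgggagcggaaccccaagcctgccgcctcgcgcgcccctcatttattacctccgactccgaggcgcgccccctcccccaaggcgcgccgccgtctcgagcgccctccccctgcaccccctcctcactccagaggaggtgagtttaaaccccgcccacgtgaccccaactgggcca
The HMGB windows were rich in this box. Hmgb1 had 3, at positions -86, -42 and -11 before the start site, Hmgb2 had 4, at -243, -198, -73 and -11, and Hmgb3 had 3, at -94, -51 and -5. Hmgn1 and Hmgn5 had 2 each, and Hmga1, Hmga2 and Hmgn2 had none. Among 32851 RefSeq windows of the same length, 33.8% held at least 1 CCAAT, 10.1% at least 2 and 2.79% at least 3. These letters were counted after the windows had been read and the expression values were known, so the match is a description of the sequence and not a site or a cause.

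Other short motifs did not divide the genes in the same way. The GC box GGGCGG, found in 32.7% of all windows on either strand, occurred 4 times before Hmgn1, 3 times before Hmga1, 2 times before Hmgn2 and 1 time each before Hmga2, Hmgb2 and Hmgb3. The letters TTTGAA or TTTAAA, as in the cell cycle homology element and present in 25.2% of windows, occurred 2 times each before Hmgb2 and Hmgb3 and 1 time each before Hmga1 and Hmgn2. The search for E2F-type letters took the string TTCCCGC as well as the string TTGGCGC, the string TTCGCGC and finally the string TTGCCGC on both strands, and 7.89% of windows held at least 1 of them. Such a string lay before Hmga2 at position -136 and overlapped its GC box. The E-box CACGTG, in 6.02% of windows, lay before Hmgn2 at -21, again overlapping a GC box, and no HMG window held TATAAA, which 12.4% of windows did. G and C made up 56.4% of the Hmga2 window and 76.0% of the Hmgn1 window, the lowest and highest of the 8, against a median of 52.4% over all windows.

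Hmga2 and Hmga1 also carry matches to the let-7 microRNA family, which represses Hmga2 in differentiated tissue. The mature let-7a sequence from RefSeq is shown with its seed, bases 2 to 8, in capitals, and below it are the stretches after the stop codon with the complementary 7 bases in capitals.
let-7a: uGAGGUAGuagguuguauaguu
Hmga2 site 1: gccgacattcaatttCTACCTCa
Hmga2 site 2: ccccactcctcaataCTACCTCt
Hmga2 site 3: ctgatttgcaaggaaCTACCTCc
Hmga2 site 4: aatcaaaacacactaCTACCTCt
Hmga1 site 1: tcctctgttcacaaaCTACCTCt
The 4 Hmga2 matches lay within 2977 bases after the stop codon and the single Hmga1 match within 1178 bases, and the other 7 genes had none. These libraries do not measure mature microRNAs, so the level of let-7 was not analysed here.

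Both HMGA genes fell with genistein, to 36.1% and 44.5% of their untreated level. Hmga1, which encodes an AT-hook factor found at gene enhancers, lies at chr17:27556497-27563674 on the plus strand (GRCm38) and its main transcript has 5 exons. Its normalised read counts, which are counts scaled to a common library size, were 795 and 822 without genistein and 294 and 288 with it. The groups stood far apart and the replicates lay close together. The level went from 808 ± 18.7 to 291 ± 4.22 (SD, n = 2 each), a log2 fold change of -1.47 ± 0.07 (SE), and the adjusted p was 1.00e-11 by the quasi-likelihood test of edgeR (Benjamini-Hochberg). Only 323 of the 16240 genes, or 1.99%, had a lower log2 fold change.

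Hmga2, the fetal AT-hook protein tied to body growth, lies at chr10:120361275-120476469 on the minus strand with 5 exons in its main transcript. It was counted at 9969.6 and 10399.6 in the untreated pair of libraries and at 4602 and 4469 after genistein. Both genistein values lay far below both untreated values. The mean fell from 10185 ± 304.1 to 4536 ± 94.3 (SD, n = 2 each), or to 44.5%, with a log2 fold change of -1.17 ± 0.04 (SE) and an adjusted p of 2.73e-13 (edgeR, Benjamini-Hochberg). The log2 ratio of the Hmga1 to the Hmga2 normalised read counts was -3.65 and -3.66 without and -3.97 and -3.95 with genistein. That is a shift of -0.305 against a widest gap between replicates of 0.01, in own-row counts not divided by exon length. A near-identical copy of Hmga1, described further on, held 81.4% to 83.4% of the counts of the pair. The level and shift of this ratio therefore depend on how reads were divided between them. With copies added, the log2 fold changes were -1.38 for Hmga1 and -1.18 for Hmga2, and the ratio was not computed.

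All 3 HMGB genes fell, Hmgb1 the most. Hmgb1, the most abundant HMG-box protein of the nucleus, spans chr5:149046702-149184489 on the minus strand. Its normalised read counts stood at 8966 and 8532 without and at 3691 and 3744 with genistein. The groups did not overlap, and the mean went from 8749 ± 306.6 to 3717 ± 37.7 (SD, n = 2 each). That is 42.5% of the untreated level, with a log2 fold change of -1.23 ± 0.03 (SE) and an adjusted p of 3.08e-14 by edgeR with Benjamini-Hochberg adjustment, the smallest among the 9 HMG genes.

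Hmgb2, a close relative that is most abundant in dividing cells and the germ line, lies at chr8:57511907-57515999 on the plus strand. It was counted at 3157 and 3116 without and at 1754 and 1717 with genistein. The fall to 55.3% of the untreated level was far outside the replicate spread, with means of 3136 ± 29.0 and 1735 ± 26.0 (SD, n = 2 each), a log2 fold change of -0.85 ± 0.04 (SE) and an adjusted p of 6.27e-12 (edgeR, Benjamini-Hochberg). Hmgb3, the HMGB gene of stem and progenitor cells, lies at chrX:71555918-71560676 on the plus strand. It was counted at 1490.4 and 1475 without and at 889.9 and 906 with the compound, again without overlap. Its log2 fold change was -0.72 ± 0.05 (SE) and its adjusted p was 1.44e-09 (edgeR, Benjamini-Hochberg). The HMGB genes thus differed in size of change. In normalised read counts, the log2 ratio of Hmgb1 to Hmgb2 was 1.51 and 1.45 without and 1.07 and 1.12 with genistein. The ratio of Hmgb1 to Hmgb3 was 2.59 and 2.53 without and 2.05 and 2.05 with it. These counts were not divided by exon length. In both ratios the shift, of -0.38 and -0.51, was larger than the widest gap between replicates, which was 0.05 and 0.06.

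The HMGN genes did not move as one. Hmgn1, at chr16:96120618-96127729 on the minus strand, encodes an HMGN protein present in most cell types. It was counted at 10723 and 10437 in untreated cells and at 9047 and 9279 in treated cells. The groups did not overlap, but the fall to 86.6% was small, with a log2 fold change of -0.21 ± 0.04 (SE) and an adjusted p of 0.000422 (edgeR, Benjamini-Hochberg). Hmgn2, at chr4:133964738-133968650 on the minus strand, encodes its close and similarly widespread relative. Its counts were 3443 and 3298 without and 3148 and 3314 with genistein, and the groups overlapped. Its log2 fold change of -0.06 ± 0.04 (SE) did not pass the test, at an adjusted p of 0.156 (edgeR, Benjamini-Hochberg), and became 0.01 when libraries were scaled by their totals. An interval of 2 standard errors either side ran from -0.14 to 0.01, which leaves out the changes seen for the HMGA and HMGB genes.

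The remaining HMGN genes were low and changed in opposite directions. Hmgn3, at chr9:83109948-83146685 on the minus strand and known from endocrine and nervous tissue, was counted at 277 and 300 in the untreated libraries. With genistein it was counted at 389.1 in one library and 389.7 in the other, which made it the 1 HMG gene that rose. The rise was 1.35-fold, with a log2 fold change of 0.44 ± 0.08 (SE) and an adjusted p of 0.000186 (edgeR, Benjamini-Hochberg). Hmgn5, at chrX:109004534-109013404 on the minus strand, encodes an HMGN protein with a long acidic tail and 406 residues, against 90 for Hmgn2. It was counted at 297 and 293 without and at 172 and 168 with genistein. It fell to 57.6%, with a log2 fold change of -0.80 ± 0.10 (SE) and an adjusted p of 1.62e-06 (edgeR, Benjamini-Hochberg). Against Hmgn1, the log2 ratio of normalised read counts shifted by 0.64 for Hmgn3 and by -0.59 for Hmgn5, with widest replicate gaps of 0.15 and 0.07.

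**Figure D1:**
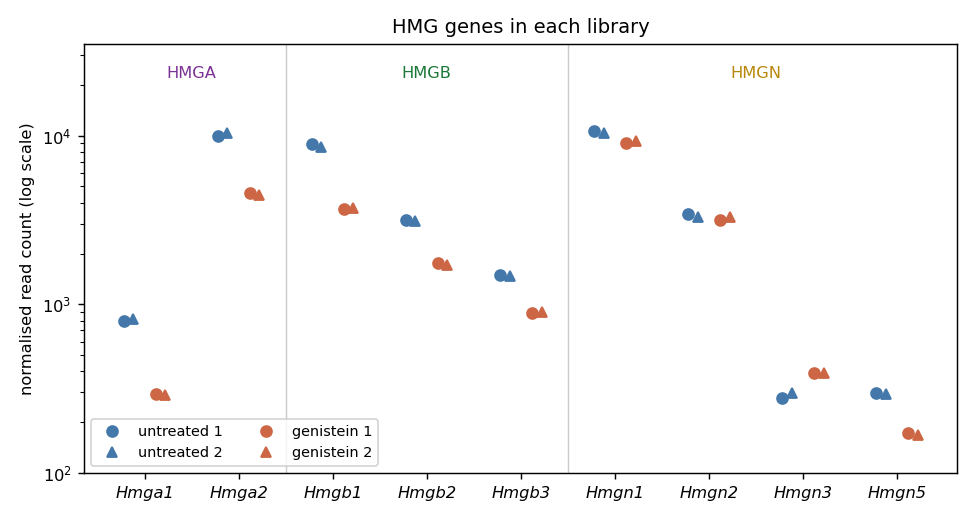
Normalised read counts of the 9 HMG genes on a log axis, with 1 point for each library (circles replicate 1, triangles replicate 2, blue untreated, orange genistein). The genistein points lie below the untreated points for 7 genes, overlap with them for Hmgn2 and lie above them for Hmgn3.

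Counted over the family, 7 of the 9 genes were lower at an adjusted p under 0.05, where 38.2% of all genes tested were, and 1 was higher, where 33.5% were. Where the log2 change had also to exceed 1 in either direction and the mean normalised read count to exceed 100, Hmga1, Hmga2 and Hmgb1 were lower, where 4.16% of all genes were, and 0 were higher, where 3.92% were. DESeq2 also put 0 members past those thresholds upwards, and at an unadjusted p under 0.05 in edgeR 1 member, Hmgn3, was higher. The groups did not overlap, with genistein lower, in 7 of the 9, against 44.6% of all genes, and in 1 with genistein higher, against 40.7%. With 9 genes picked with earlier results known, these counts are read as a description. The median log2 fold change of the 9 was -0.80, against -0.03 over all genes tested. The number of all genes tested with a log2 fold change lower than the member's was 581 (3.58%) for Hmgb1, 688 (4.24%) for Hmga2, 1542 (9.50%) for Hmgb2, 1795 (11.1%) for Hmgn5, 2093 (12.9%) for Hmgb3 and 6319 (38.9%) for Hmgn1.

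**Figure D2:**
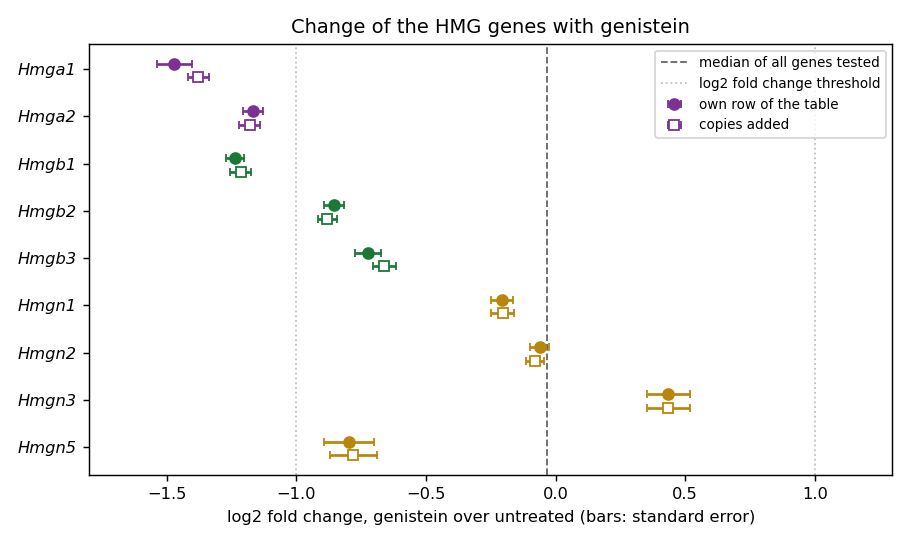
Log2 fold change of each HMG gene, genistein over untreated, with the standard error as the bar, for the gene's own row (filled) and with its near-identical copies added (open). HMGA genes and Hmgb1 lie beyond -1, Hmgn1 and Hmgn2 lie close to the median of all genes (dashed), and Hmgn3 is the only one to the right of it; scaled by library totals, Hmgn2 stood at 0.01.

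The subfamilies can be set side by side through their summed counts. HMGA summed to 10765 and 11221 normalised read counts without genistein and to 4897 and 4757 with it, so that the log2 ratio of the means was -1.19. HMGB summed to 13613 and 13123 without and to 6334 and 6367 with genistein, a log2 ratio of -1.07. HMGN summed to 14739.6 and 14327 without and to 12756 and 13150.4 with it, a log2 ratio of only -0.17. Summed HMGA was therefore 2.28 times and summed HMGB 2.10 times as high without genistein as with it, and summed HMGN 1.12 times. These sums are descriptions and were not tested.

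Per exon length, in TPM (each gene's reads per base of exon, scaled to one total in every library), the make-up of the HMG pool changed. HMGN made up 47.1% and 46.5% of the summed HMG TPM without genistein and 62.0% and 62.8% with it. HMGB went from 34.7% and 34.1% to 25.7% and 25.4%, and HMGA from 18.3% and 19.3% to 12.3% and 11.7%. The log2 ratios between subfamilies were taken from the summed normalised read counts, not from TPM. The ratio of HMGA to HMGN was -0.45 and -0.35 without and -1.38 and -1.47 with genistein. Its shift was -1.02 against a widest replicate gap of 0.10. The ratio of HMGB to HMGN was -0.12 and -0.13 without and -1.01 and -1.05 with genistein. Its shift was -0.91 against a gap of 0.04. Between HMGA and HMGB the shift was -0.11 from the genes' own rows, the same size as the widest replicate gap of 0.11. With the near-identical copies described further on added to each gene, that shift was -0.17 against a gap of 0.09. In summed counts, whether HMGA was lowered more than HMGB therefore depended on how copies were counted. In TPM from the own rows, HMGA went from 145 and 151 to 69.1 and 70.3. HMGB went from 275 and 267 to 145 and 152. The ratio of these TPM sums was not computed.

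**Figure D3:**
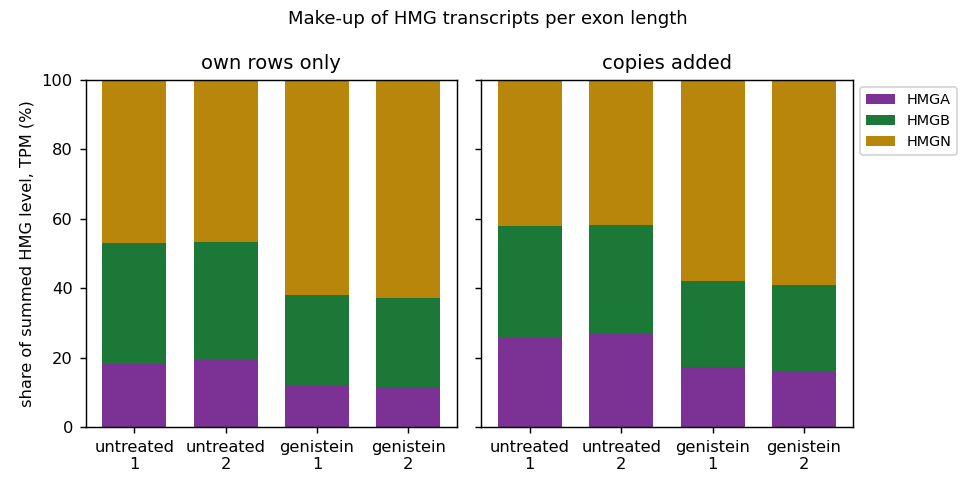
Share of the summed TPM of the 9 HMG genes held by HMGA, HMGB and HMGN in each library, from the genes' own rows (left) and with near-identical copies added (right). HMGN holds 46.5% to 47.1% without and 62.0% to 62.8% with genistein on the left, and 41.7% to 42.1% and 57.9% to 59.1% on the right.

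The order of the levels was set by Hmgn1 in both groups. In TPM, the untreated means were 258 for Hmgn1, 137 for Hmgb1, 118 for Hmga2, 86.5 for Hmgn2, 82.1 for Hmgb2, 52.1 for Hmgb3, 29.9 for Hmga1, 12.1 for Hmgn3 and 11.98 for Hmgn5. The replicate ranges of neighbours in this order were apart except for those of Hmgn3 and Hmgn5. The length used for each gene covers the exons of all its annotated transcripts. The order between genes therefore also depends on that length, and other lengths were not tried. With genistein the means were 246 for Hmgn1, 91.3 for Hmgn2, 64.0 for Hmgb1, 57.8 for Hmga2, 49.9 for Hmgb2, 34.7 for Hmgb3, 18.002 for Hmgn3, 11.8 for Hmga1 and 7.58 for Hmgn5, with all neighbours apart. Hmgn2 thus moved from the 4th to the 2nd place with a TPM that overlapped between groups, and the own row of Hmga1 dropped below Hmgn3. With copies added, Hmga1 stayed above Hmgn3, at 69.4 against 18.002 TPM with genistein.

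Most HMG genes have near-identical copies elsewhere in the genome, made by reverse transcription of their messenger RNA, and reads cannot always be told apart between a gene and its copies. How the authors' counting divided such reads is not given in the sources used here. Rows whose annotated transcript matched an HMG transcript at 90% identity or more over at least 80% of its length numbered 77 for Hmgb1, 19 for Hmgn2, 9 for Hmgb3, 6 for Hmgb2, 5 for Hmgn1 and 1 each for Hmga1, Hmga2 and Hmgn5, and 0 for Hmgn3. The copies held 23.9% to 25.6% of the counts of Hmgb1 and its copies over the 4 libraries, and 43.0% to 43.8% for Hmgn2. They held 14.3% to 16.95% for Hmgb2, 17.1% to 21.7% for Hmgb3, 5.51% to 5.91% for Hmgn1, 3.35% to 4.32% for Hmga2 and 14.4% to 18.3% for Hmgn5.

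Hmga1 was the gene whose own row held the least. Its single copy, Hmga1b, singled out after its values were seen, is annotated as protein coding at chr11:120762794-120764419 on the plus strand and was 99.8% identical over 98.5% of its transcript. Hmga1b was counted at 3664 and 3599 without and at 1476 and 1356 with genistein, and it held 81.4% to 83.4% of the counts of the pair. It fell with a log2 fold change of -1.36 ± 0.04 (SE) and an adjusted p of 1.13e-13 (edgeR, Benjamini-Hochberg), close to the -1.47 of Hmga1 itself. Added together, Hmga1 and Hmga1b had a log2 fold change of -1.38 ± 0.04 (SE) and an adjusted p of 4.11e-14 (edgeR, Benjamini-Hochberg). With copies added, Hmga1 stood at 164 TPM without and 69.4 TPM with genistein, above Hmga2 at 123 and 59.9, where its own row alone had put it 7th in the untreated libraries.

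Adding the copies changed no member's call. The log2 fold changes were then -1.18 for Hmga2, -1.22 for Hmgb1, -0.88 for Hmgb2, -0.66 for Hmgb3, -0.20 for Hmgn1 and -0.78 for Hmgn5. Hmgn2 with its copies had a log2 fold change of -0.08 and an adjusted p of 0.0553 (edgeR, Benjamini-Hochberg). Of the copies, 28 passed the filter on low counts, of which 15 were lower, 4 were higher and 9 did not pass the test, with a median log2 fold change of -0.70. The 4 higher copies, named after their values were seen, were Gm7909 and Gm14049 of Hmgb1 and Gm8850 and Gm15576 of Hmgb3. They had mean normalised read counts of 29.3, 12.6, 21.7 and 14.98 and an identity to their gene of 90.4%, 90.3%, 92.0% and 91.1%, near the lower limit set for a copy. For Hmgb1, 9 of 12 copies tested were lower, as the gene itself was, and for Hmgn2, 1 of 4 was, Gm10182.

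**Figure D4:**
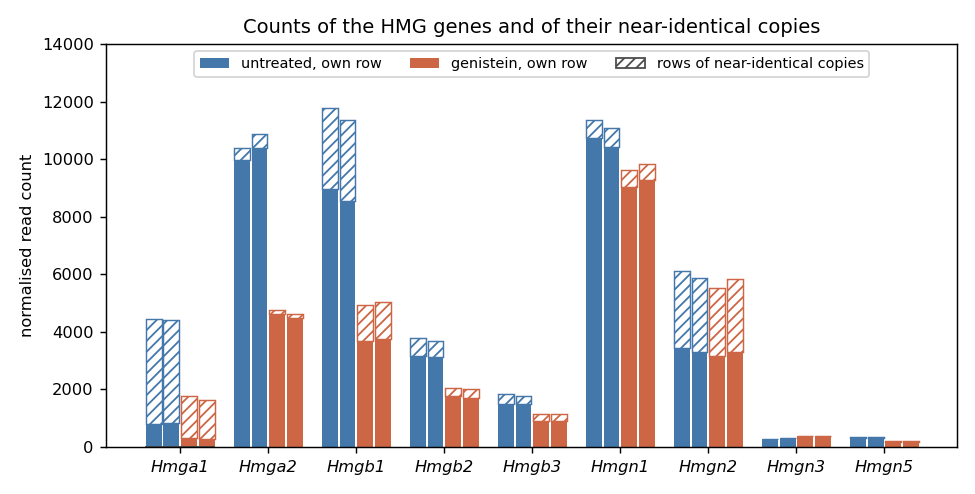
Normalised read counts of each HMG gene in the 4 libraries (solid, untreated blue and genistein orange) with the summed counts of its near-identical copies stacked on top (hatched). The hatched part exceeds the solid part for Hmga1, where it is 81.4% to 83.4% of the total, and is 43.0% to 43.8% for Hmgn2.

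Hmga1, Hmga2, Hmgb1 and Hmgn3 share exon bases with other annotated genes. The strand setting of the counter is not given in the sources used here, so reads from opposite strands may be mixed. Hmga1 shares 102 exon bases with AI413582 on the other strand, which had 194 and 168 raw counts without and 257 and 226 with genistein. It also shares 22 with Gm49774 on the other strand, which has no counts here. Hmgb1 shares 42 exon bases with Uspl1 on the other strand, which had 1998 and 1881 raw counts without and 1540 and 1446 with genistein. On its own strand Hmgb1 shares 37 with Mm2pr, at 16 and 9 raw counts without and 38 and 32 with genistein. Hmga2 shares 140 with 1700006J14Rik, at most 2 raw counts, and Hmgn3 shares 255 with Gm29054, at 0 in every library.

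Linker histones compete with HMGN and HMGB proteins for nucleosomes, and those of the Hist1 cluster fell further than any HMG gene. Of 7 linker histone genes, 6 were lower and 1 did not pass the test, with a median log2 fold change of -2.52. Hist1h1a was counted at 2772 and 2923 without and at 135 and 157 with genistein, a log2 fold change of -4.29 ± 0.07 (SE) and an adjusted p of 2.55e-17 (edgeR, Benjamini-Hochberg). Hist1h1b and Hist1h1d, which like Hist1h1a are made mainly in S phase and lack a poly(A) tail, had log2 fold changes of -3.07 and -3.06. The gene that did not pass was H1fx, at 211 and 170 without and 201 and 186 with genistein. Summed over the list, linker histones stood between 65660 and 65753 normalised read counts without genistein and between 10093 and 11104 with it.

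Histone chaperones, which escort histones on and off DNA, were lower in 16 of 16, with a median log2 fold change of -0.97. The members with the largest changes were Set, an acidic protein of the nucleosome assembly family, at -1.53 ± 0.05 (SE), the nucleolar protein gene Ncl at -1.28 ± 0.05 and Npm3 of the nucleoplasmin family at -1.19 ± 0.05, with adjusted p of 7.11e-14, 1.76e-12 and 6.40e-12 (edgeR, Benjamini-Hochberg).

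Other genes that encode an HMG box moved both ways. Of 16 chromatin and mitochondrial HMG-box genes, 14 passed the filter, and 5 were higher, 7 lower and 2 did not pass the test, with a median of -0.10. Hbp1, a repressor that slows entry into the cell cycle, was counted at 872 and 895 without and at 1864 and 1982 with genistein, a log2 fold change of 1.12 ± 0.05 (SE). Ubtf, which binds ribosomal RNA genes, fell by 0.92 ± 0.04, and Tfam, which packs mitochondrial DNA, by 0.64 ± 0.04 on the same scale, and the adjusted p of the 3 genes were 7.80e-12, 1.43e-12 and 2.76e-10 (edgeR, Benjamini-Hochberg). Of 23 sequence-specific SOX and TCF/LEF factors, 11 passed the filter, and 5 were higher, 3 lower and 3 did not pass, with a median of 0.58. Tcf7l2 and Tcf7l1, factors of the WNT pathway, had log2 fold changes of 0.92 and 0.83, and Sox4, a factor of progenitor cells, rose from 4222 and 4114 to 7069 and 7377 with a log2 fold change of 0.79.

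The genes of the let-7 axis and the IGF2BP proteins that bind Hmga2 messenger RNA changed less than the HMGA genes. Of 9 listed, 8 passed the filter, and 6 were lower, 1 higher and 1 did not pass, with a median of -0.31. Dicer1, which cuts precursor microRNAs, had a log2 fold change of -0.48 ± 0.04 (SE), Igf2bp1 of -0.46 ± 0.03 and Dgcr8, a partner of Drosha in the first cut, of -0.37 ± 0.04, with adjusted p of 6.79e-09, 2.78e-09 and 8.37e-07 (edgeR, Benjamini-Hochberg). Of the 10 receptors and partners of extracellular HMGB1, 5 passed the filter, of which 3 were higher and 2 lower. Tlr4, a receptor for bacterial lipopolysaccharide that also senses HMGB1, rose from 489 and 522 to 1166 and 1232. Its log2 fold change was 1.25 ± 0.06 (SE), with an adjusted p of 2.44e-11 (edgeR, Benjamini-Hochberg). A link to the fall of Hmgb1 was not tested. Tlr2 was higher by 0.54 on the log2 scale, and Cxcl12, a chemokine that forms a complex with HMGB1, had a log2 fold change of -0.46 from 29924 and 29877 normalised read counts without genistein to 21314 and 22191 with it.

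Several HMG genes are known to be highest in dividing cells, and most genes of the G1/S list were lower too. Of 30 G1/S genes, 28 were lower, 1 higher and 1 did not pass, with a median log2 fold change of -0.57. Ung, a DNA repair glycosylase, and the cyclin genes Ccne1 and Ccne2 had log2 fold changes of -2.21, -1.61 and -1.41. Of 30 G2/M genes, with Hmgb2 left out of the list as a member, 16 were lower, 8 higher and 6 did not pass, with a median of -0.13. Ckap2, a spindle protein, was higher at 1.31, while Ccna2 and Aurkb, a cyclin and a mitotic kinase, had log2 fold changes of -0.79 and -0.70. Hmgb2, at -0.85, lay below all 3. The part of the cell cycle genes in the HMG result was not tested.

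**Figure D5:**
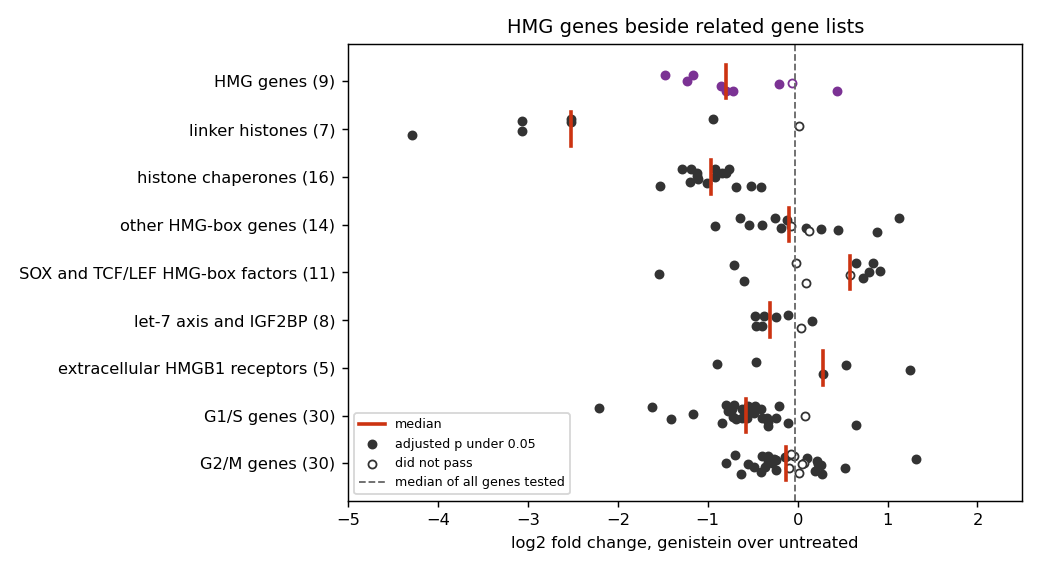
Log2 fold change, genistein over untreated, of every tested gene in the HMG group and in 8 related lists (points, filled where the adjusted p was under 0.05), with the median of each list as a red bar and the median of all genes as a dashed line. The median of the HMG genes, -0.80, lies between those of the histone chaperones, -0.97, and the G1/S genes, -0.57, and far from that of the linker histones, -2.52; the open HMG point is Hmgn2, which stood at 0.01 when scaled by library totals.

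Summed markers of other cell types differed between groups, and those of epithelial and neural cells reached levels like that of the Hmga1 row. Each sum came mostly from 1 gene, named here after its values were seen, and does not show a cell type. Krt14 was counted at 711 and 668 without and at 114 and 100 with genistein. Tubb3 stood at 912 and 856 without and at 775 and 742 with it. With genistein, Des stood at 283 and 264, Cd68 at 211 and 213 and Kdr at 68.5 and 74.9. The normalised read counts of 6 epithelial markers summed to between 722 and 773 without genistein and between 147 and 149 with it, with Epcam and Krt5 at 0. The 6 skeletal muscle markers summed to between 42.3 and 51.9 without and between 295 and 315 with genistein, with Myod1 and Ckm at 0. The 6 blood markers summed to between 66.7 and 84.9 without and between 216 and 218 with it, with Cd3e and Hba-a1 at 0, and the 6 endothelial markers to between 26.0 and 33.9 without and between 99.4 and 100.2 with it. For 6 neural markers the sums were 860 to 915 without and 747 to 783 with genistein, with Snap25, Rbfox3 and Olig2 at 0. The part of these genes in the HMG result was not tested.

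Genes whose profile over the 4 libraries lay nearest to an HMG gene were found by the root mean square distance of centred log2 CPM among 10236 genes. Nearest to Hmga1 were Rcc1, the exchange factor of the Ran GTPase, at 0.0162, Wdr4, part of a transfer RNA methyltransferase, at 0.0217 and Mrto4, a ribosome assembly factor, at 0.0260. Nearest to Hmgb2 were Bola1 at 0.00459, Stard4, a sterol carrier, at 0.00873 and Pdap1 at 0.00893. Nearest to Hmgn2 were Edrf1 at 0.00344, Nt5dc2 at 0.00858 and Prkaa1, a catalytic subunit of AMP-activated kinase, at 0.00859. With 4 libraries in 2 groups, this likeness is mostly likeness of the change between groups.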

How the data were processed

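The authors deposited raw counts for each gene and repeat. They aligned reads of ribosome-depleted stranded total RNA to mm10 with STAR, allowed many alignments a read, and used TEtranscripts on GENCODE M9 for counting. Of 49383 entries, 47937 were genes and 1445 repeats, and 1 entry with no name (0.00208% to 0.00314% of counts) was left out.

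Genes and repeats that passed filterByExpr (17358) were fitted in 1 table with edgeR 4.0.16 (R 4.3.3): TMM factors, quasi-likelihood test, Benjamini-Hochberg adjustment over the table, threshold 0.05, after a test on simulated data. A stricter call, after the study's thresholds, also needed a log2 change beyond 1 either way and a mean normalised count above 100. The smallest exact permutation p for 2 against 2 is 0.333, so none is given. Normalised counts are counts per effective library size. TPM used summed exon lengths from GENCODE M21 (GRCm38), whose release differs from the authors'. Copies were found with blastn 2.17.0. Standard errors and p-values include the spread between replicates. The replicates of each group differed by more than counting noise, with a chi-square of 5.89 and 13.2 per degree of freedom, so each library counted once.

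The members and lists were chosen with earlier results of these data known. Named genes were all 9 members, up to 3 genes per related list with the largest absolute log2 fold change among those with an adjusted p under 0.05 and that mean count, and the 3 genes nearest in profile to Hmga1, Hmgb2 and Hmgn2, leaving out pseudogenes and unnamed predicted genes. Alternatives were RLE factors, TMM from genes alone, library totals, no filter, DESeq2 1.42.0, a test against the fold threshold, a replicate block, copies added, and each library left out. Adding the copies to the TPM levels was chosen after seeing the data.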

Additional observations from a re-analysis of the deposited data

How the results depend on the processing

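The member counts were 7 lower and 1 higher at an adjusted p under 0.05, and 3 lower and 0 higher past all thresholds. Under the alternatives that kept all libraries, these counts stayed the same. The test against the fold threshold gave only the counts past all thresholds. Under the others that kept all libraries, no member crossed the threshold of 0.05, and only Hmgn2 changed direction. Its log2 fold change turned to 0.0083 (adjusted p = 0.875, edgeR) with library totals. Its adjusted p ranged from 0.0532 to 0.875 by edgeR or DESeq2. With each library left out in turn, no member changed direction. The median log2 fold change of the members, -0.80, moved to -0.75 where TMM used the genes alone, to -0.73 under library totals, and to -0.82 both without a filter and by DESeq2. Summed HMGA, -1.19, moved to -1.14 with genes alone, -1.12 with library totals and -1.24 with copies added. Summed HMGB, -1.07, moved to -1.03 and -1.004, and summed HMGN, -0.17, to -0.12 and -0.10, with genes alone and library totals. Both of these scalings raise the median of all genes, from -0.03 to 0.01 and 0.04. With each library left out in turn, the values ran from -1.22 to -1.16 for HMGA, -1.10 to -1.05 for HMGB, -0.19 to -0.14 for HMGN and -0.81 to -0.78 for the median. As a replicate block, the replicate numbers left the median at -0.80 and changed no member's call; deviations of same-numbered libraries correlated at -0.026, which does not show a pairing. With 2 libraries a group, the spread of each gene leans on that of all genes, and differences as small as that of Hmgn2 were not detectable at this replication.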

Other observations

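Rows that lie within the span of Hmgb1 did not all move with it. Gm8615, a transcribed processed pseudogene on the same strand that shares no exon bases with Hmgb1 and was picked after its values were seen, was counted at 57.9 and 60.3 normalised reads in the untreated libraries and at 129 and 130 in the genistein libraries, a log2 fold change of 1.13 ± 0.15 (SE) with an adjusted p of 3.99e-06 (edgeR, Benjamini-Hochberg). Mir763, a microRNA gene within Hmga2, was counted at 66.9 and 74.1 without and at 76.9 and 52.6 with genistein, with overlapping groups.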
